A study of Mus musculus with 36 samples.

Results

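The change that TFEB overexpression made in the CCR2-positive (CCR2pos) fraction of mouse cardiac macrophages was set against the change it made in the CCR2-negative (CCR2neg) fraction. The measure is a difference of differences, called the interaction here: the log2 difference CCR2pos minus CCR2neg in mac-TFEB cells, minus the same difference in CX3CR1-Cre cells. It uses the 18 libraries of Cre-expressing cells among the 36 of the study, paired by the number in their labels, which gives 4 mac-TFEB pairs and 5 CX3CR1-Cre pairs. All 12732 genes that passed a filter on low counts were tested, of the 12795 in the deposited table. A positive interaction means that the difference mac-TFEB minus CX3CR1-Cre was higher in CCR2pos than in CCR2neg cells.

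The mac-TFEB animals carried a Cx3cr1-er-Cre allele, a TFEB cassette behind a floxed stop (TFEB-LoxP-STOP) and the reporter Td-Tomato-LoxSTOP. The CX3CR1-Cre controls carried the Cre allele and the reporter but no cassette, so Cre, reporter and tamoxifen are shared by both genotypes. Animals were given tamoxifen in the feed for 7 days, the heart was then made ischemic for 90 minutes, and the sort took place 7 days later. The remaining 18 libraries are of TFEB-TG and TFEB-wt cells labelled Cre-neg, called cells without Cre below, and repeat the design. In the study they served to find genes that differ through the cassette alone, which were set aside before the effect of TFEB was read. What set Cre-neg cells apart and the age of the animals are not given in the sources used here. Cre is expressed wherever Cx3cr1 is active, which includes other myeloid cells besides macrophages. Whether the libraries within a group are from different animals is not stated in the labels, so the p-values speak of the spread among these libraries, some of which may be technical.

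TFEB is a basic helix-loop-helix transcription factor that the kinase complex mTORC1 holds in the cytoplasm while nutrients are plentiful. On starvation or lysosomal stress it enters the nucleus, binds the CLEAR element, whose core letters are CACGTG, and raises genes of lysosomes and autophagy. CCR2 is the receptor for the chemokine CCL2, through which monocytes leave the bone marrow and enter the injured heart, so CCR2pos cardiac macrophages are largely monocyte-derived, while the CCR2neg fraction includes resident cells that renew themselves in the tissue.

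Total counts ran from 14942156 to 29896334 in the Cre-expressing libraries and from 13797484 to 32645783 in the Cre-neg libraries. Library to library, the median SD of a gene within a group was 0.26 to 0.28 on the log2 scale. The libraries least like the others of their group were mac-TFEB CCR2neg 1 and CX3CR1-Cre 3 of both fractions. Xist, which silences an X chromosome in female cells, was present in 2 of 4 TFEB-TG and 4 of 5 TFEB-wt labels, so genotype and sex were not balanced. Values below in CPM are TMM-scaled read counts relative to library size, computed from the deposited counts, and a value followed by ± is a log2 difference with its standard error unless SD is named. Genes are called where edgeR's quasi-likelihood test, with Benjamini-Hochberg adjustment over all genes tested, gave an adjusted p under 0.05.

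The targeted gene followed the labels in both fractions. Tfeb (ENSMUSG00000023990, chromosome 17, 47737030 to 47792419, GRCm38) was at 225, 280, 60.3 and 68.2 CPM in mac-TFEB CCR2pos libraries 1 to 4 and at 331, 244, 96.9 and 66.1 CPM in mac-TFEB CCR2neg libraries 1 to 4. It was at 4.39 to 11.6 CPM in CX3CR1-Cre CCR2pos libraries and at 6.64 to 8.87 CPM in CX3CR1-Cre CCR2neg libraries. Labels 1 and 2 of mac-TFEB were higher than labels 3 and 4, and no mac-TFEB library overlapped a CX3CR1-Cre library. Xist was present in labels 3 and 4 of mac-TFEB only, so Tfeb level and sex cannot be told apart within that genotype. The difference mac-TFEB minus CX3CR1-Cre was 4.58 in CCR2pos and 4.55 in CCR2neg cells, from a fit of group means. The interaction, from the paired fit and so not their exact difference here or for the genes below, was 0.07 ± 0.25 (95% interval -0.47 to 0.62, adjusted p = 0.964). An exact two-sided permutation test over all regroupings of the 9 pair differences gave p = 0.730, where 0.0159 is the smallest possible. A difference in Tfeb between the fractions was thus not detectable, and the estimate was below 0 with limma-voom and in 4 of the 9 fits that leave out 1 numbered pair.

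Ccr2 was at 302 to 866 CPM in mac-TFEB CCR2pos against 36.2 to 69.8 CPM in mac-TFEB CCR2neg libraries, and at 403 to 1020 CPM in CX3CR1-Cre CCR2pos against 30.2 to 75.7 CPM in CX3CR1-Cre CCR2neg libraries. The log2 difference between fractions was 3.56 in mac-TFEB and 3.97 in CX3CR1-Cre cells, with an interaction of -0.41 ± 0.21 (adjusted p = 0.654, exact permutation p = 0.175). Cx3cr1, the fractalkine receptor whose gene drives Cre, had an interaction of 0.15 ± 0.12 (adjusted p = 0.796, exact permutation p = 0.349). Cd68, a lysosomal glycoprotein used as a macrophage marker, averaged 2106 CPM in mac-TFEB CCR2pos, 2476 in mac-TFEB CCR2neg, 2213 in CX3CR1-Cre CCR2pos and 2026 CPM in CX3CR1-Cre CCR2neg cells. The macrophage label of the samples is thus matched by that marker in all 4 groups.

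Across all genes the interaction was called for 1 gene, Mmp9, which is 0.00785% of those tested. At an unadjusted p under 0.05 there were 1000 genes (7.85%), with 584 (4.59%) above and 416 (3.27%) below 0. The interaction had a median of 0.03 over all genes, with 5th and 95th percentiles at -0.58 and 0.85, and the median standard error was 0.24. It was above 0 for 6862 and below 0 for 5870 of the 12732 genes, the background for the list counts below. The 4 mac-TFEB pair differences all lay above the 5 of CX3CR1-Cre for 177 genes (1.39%) and all below them for 192 genes (1.51%), together 2.9%. All pairs were higher in CCR2pos in mac-TFEB and lower in CX3CR1-Cre for 24 genes (0.189%), and the reverse held for 48 (0.377%). In counts simulated from these libraries, the same test recovered 42.0% of genes given a log2 interaction of 1 and 78.0% of those given 2. Many differences of the first size would thus go uncalled at this number of pairs. Genes of all sizes were planted in the same simulated data, which loosens the Benjamini-Hochberg threshold. With few true interactions the recovered shares would be lower. The count of calls depends on the tool: DESeq2 called 98 genes (34 higher, 64 lower), or 58 without its independent filtering, an alternative added after the data were seen, limma-voom with quality weights called 10 (4 higher, 6 lower), and 7 genes were called by both, among them Anpep, Ndrg1, Cd300lf, Cd200r4, Mcoln2 and Dnajb1.

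Mmp9 encodes gelatinase B, a secreted metalloproteinase that degrades denatured collagen and basement membrane in the healing infarct. Mmp9 (ENSMUSG00000017737, chromosome 2, 164940780 to 164955850) was at 11.4, 27.4, 7.4 and 8.27 CPM in mac-TFEB CCR2pos libraries 1 to 4, against 3.98, 11.5, 5.56 and 4.07 CPM in mac-TFEB CCR2neg libraries 1 to 4. In CX3CR1-Cre cells it was at 27.3, 10.2, 27.3, 26.7 and 10.1 CPM in CCR2pos libraries 1 to 5, against 33.9, 19.2, 41.6, 45.0 and 13.5 CPM in CCR2neg libraries 1 to 5. Every mac-TFEB pair was higher in CCR2pos and every CX3CR1-Cre pair lower in CCR2pos, and all 4 mac-TFEB CCR2neg libraries lay below all 5 CX3CR1-Cre CCR2neg libraries. Mmp9 rose in CCR2pos over CCR2neg cells of mac-TFEB by 1.05 ± 0.17 (adjusted p = 0.00327) and fell by 0.60 ± 0.14 in those of CX3CR1-Cre (adjusted p = 0.0328). The interaction was 1.65 ± 0.22 (95% interval 1.17 to 2.13, adjusted p = 0.0493). Seen the other way, Mmp9 fell by 2.29 ± 0.48 with TFEB in CCR2neg cells (adjusted p = 0.0198), while the value in CCR2pos cells was -0.57 ± 0.45 (adjusted p = 0.996). Without Cre, edgeR gave Mmp9 an interaction of 1.11 ± 0.29 (unadjusted p = 0.00195). The difference with minus without Cre was 0.51 ± 0.50 (unadjusted p = 0.313), so a difference from cells without Cre was not detectable.

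The call of Mmp9 was close to the threshold and was lost under several settings, with the estimate between 1.48 and 1.84 in every edgeR and limma fit run. The adjusted p was 0.0564 with DESeq2 size factors, 0.135 in a fit to all 36 libraries, 0.0879 with a fraction-by-sex term and 0.999 without the replicate block, against 0.0311 with limma-voom. It was 0.0293 without mac-TFEB pair 1 and 0.0139 without mac-TFEB pair 3, but 0.238 and 0.289 without mac-TFEB pair 2 or 4, and 0.0573, 0.189, 0.0525, 0.306 and 0.148 without CX3CR1-Cre pairs 1 to 5. DESeq2 without independent filtering gave 1.62 ± 0.24 with an adjusted p of 3.49e-07, and with that filtering it gave none.

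Dnajb1 and Plbd1 were among the genes of smallest p above 0 that averaged at least 10 CPM in a group, and neither was called. Dnajb1 (chromosome 8, 83608193 to 83612653) encodes an HSP40 co-chaperone of the heat shock response. Dnajb1 was at 461, 381, 320 and 358 CPM in mac-TFEB CCR2pos libraries, against 317, 245, 195 and 220 CPM in mac-TFEB CCR2neg libraries, and at 319, 353, 344, 490 and 418 CPM in CX3CR1-Cre CCR2pos libraries, against 313, 296, 396, 421 and 372 CPM in CX3CR1-Cre CCR2neg libraries. The mac-TFEB CCR2neg libraries stood lower, with 3 of 4 below every other library, and the interaction was 0.56 ± 0.11 (adjusted p = 0.283).

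Plbd1 (chromosome 6, 136612070 to 136661928) encodes a lysosomal phospholipase B-like protein. Plbd1 was at 148, 195, 104 and 159 CPM in mac-TFEB CCR2pos libraries, against 67.3, 51.9, 45.7 and 53.9 CPM in mac-TFEB CCR2neg libraries, and at 181, 230, 244, 232 and 224 CPM in CX3CR1-Cre CCR2pos libraries, against 116, 115, 163, 148 and 179 CPM in CX3CR1-Cre CCR2neg libraries. Every pair of both genotypes was higher in CCR2pos, and the 4 mac-TFEB differences were larger than the 5 of CX3CR1-Cre. Plbd1 rose in CCR2pos over CCR2neg cells by 1.45 in mac-TFEB (adjusted p = 3.26e-05) and by 0.64 in CX3CR1-Cre cells (adjusted p = 0.00479), with an interaction of 0.81 ± 0.17 (adjusted p = 0.313).

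Anpep, Cd300lf, Cd200r4 and Ndrg1 had the smallest p below 0, and none was called by edgeR with all pairs. Without mac-TFEB pair 1, edgeR gave adjusted p of 0.0286 for Anpep, 0.0293 for Ndrg1, 0.0373 for Cd200r4 and 0.0655 for Cd300lf. Anpep, Ndrg1 and Cd200r4 were each called in only 1 of the 9 fits that leave out a pair, and Cd300lf in 0. Anpep (chromosome 7, 79821803 to 79861059) encodes aminopeptidase N, or CD13, a surface peptidase of myeloid cells. Anpep was at 172, 170, 196 and 135 CPM in mac-TFEB CCR2pos libraries, against 280, 401, 480 and 403 CPM in mac-TFEB CCR2neg libraries, and at 91.5, 191, 194, 134 and 145 CPM in CX3CR1-Cre CCR2pos libraries, against 139, 229, 150, 147 and 154 CPM in CX3CR1-Cre CCR2neg libraries. The 4 mac-TFEB CCR2neg libraries were above all the others, while the mac-TFEB CCR2pos libraries lay within the range of CX3CR1-Cre. With TFEB, Anpep rose by 1.26 ± 0.20 in CCR2neg cells (adjusted p = 0.00264), against a value of 0.15 ± 0.20 in CCR2pos cells (adjusted p = 0.998), and the interaction was -1.06 ± 0.19 (adjusted p = 0.210). Cd300lf (chromosome 11, 115116214 to 115133992) encodes an inhibitory receptor of myeloid cells that binds phosphatidylserine on dying cells. Cd300lf was at 67.8, 69.8, 103 and 101 CPM in mac-TFEB CCR2pos libraries, against 82.8, 93.8, 154 and 152 CPM in mac-TFEB CCR2neg libraries, and at 51.4, 74.0, 62.3, 69.2 and 57.9 CPM in CX3CR1-Cre CCR2pos libraries, against 41.0, 69.3, 41.7, 38.5 and 55.7 CPM in CX3CR1-Cre CCR2neg libraries. All 4 mac-TFEB pairs were lower in CCR2pos and all 5 CX3CR1-Cre pairs higher, with an interaction of -0.85 ± 0.16 (adjusted p = 0.210).

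Cd200r4 and Ndrg1 had the same opposed pairs. Cd200r4 (chromosome 16, 44811733 to 44839150) encodes an activating member of the CD200 receptor family. Cd200r4 was at 33.3, 35.9, 69.8 and 48.0 CPM in mac-TFEB CCR2pos libraries, against 39.8, 54.8, 95 and 76.2 CPM in mac-TFEB CCR2neg libraries, and at 35.5, 40.3, 38.3, 32.9 and 30.6 CPM in CX3CR1-Cre CCR2pos libraries, against 31.5, 36.1, 22.6, 24.5 and 25.2 CPM in CX3CR1-Cre CCR2neg libraries. The interaction of Cd200r4 was -0.85 ± 0.15 (adjusted p = 0.210), every mac-TFEB pair being lower and every CX3CR1-Cre pair higher in CCR2pos. Ndrg1 (chromosome 15, 66929318 to 66969640) encodes a stress-responsive cytoplasmic protein induced by hypoxia. Ndrg1 was at 66.6, 51.6, 90.1 and 76.0 CPM in mac-TFEB CCR2pos libraries, against 69.6, 63.0, 116 and 96.5 CPM in mac-TFEB CCR2neg libraries, and at 62.9, 63.3, 38.1, 62.9 and 61.3 CPM in CX3CR1-Cre CCR2pos libraries, against 42.8, 45.7, 30.7, 47.4 and 46.8 CPM in CX3CR1-Cre CCR2neg libraries. Its interaction was -0.69 ± 0.11 (adjusted p = 0.143), and reads were counted without strand, so those of the antisense genes Gm17035 and Gm2895, which share exon bases with Ndrg1, cannot be told apart from it.

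**Figure D1:**
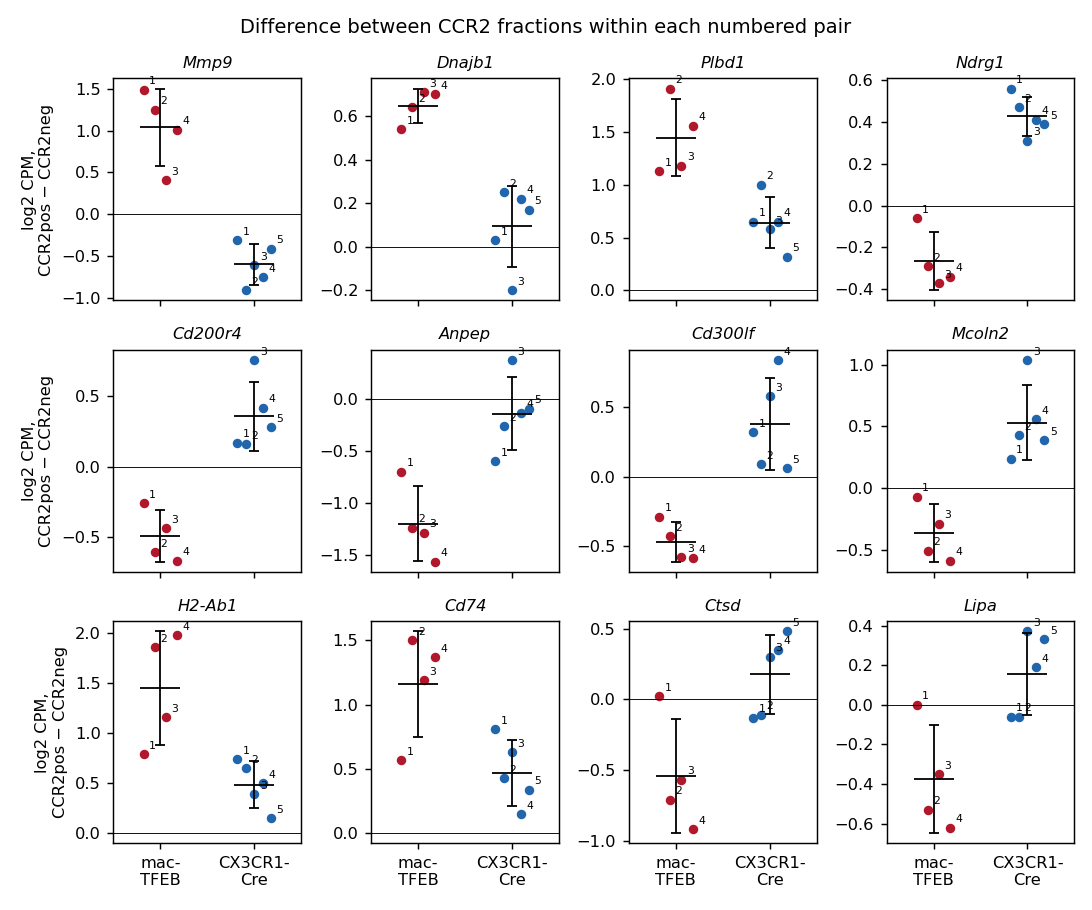
Log2 CPM of CCR2pos minus CCR2neg within each numbered pair (vertical axis), with 4 mac-TFEB pairs (red) left of 5 CX3CR1-Cre pairs (blue); the small digits are the pair numbers, and the horizontal and vertical bars are the mean and SD. The Mmp9 values are all above 0 in mac-TFEB and all below 0 in CX3CR1-Cre, Cd300lf, Cd200r4 and Ndrg1 show the opposite, and the pairs of Cd74, Ctsd and Lipa overlap between genotypes.

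Other genes among the 12 of smallest p on each side were likewise not called, and are given as values. On the positive side were Dnajb9 (0.48 ± 0.10) and Herpud1 (0.46 ± 0.10), both of the stress response of the endoplasmic reticulum, Junb (0.80 ± 0.18), a subunit of the transcription factor AP-1, the orphan TNF receptor family member Relt (0.67 ± 0.15), and the MHC class II genes H2-Ab1, H2-Eb1 and H2-Aa, described below. The mast cell tryptase Tpsb2 (6.16 ± 1.27) owed its value to CX3CR1-Cre CCR2neg libraries 4 and 5, at 50.7 and 7.45 CPM, with no other library above 2.38 CPM. On the negative side were the lysosomal channel Mcoln2 (-0.90 ± 0.17), the membrane protein Tmem154 (-0.72 ± 0.16), the metalloproteinase Adam8 (-0.66 ± 0.15), the lysosomal nuclease Pld3 (-0.60 ± 0.14), the lipid droplet coat protein Plin2 (-0.59 ± 0.13), the phospholipid-binding annexin Anxa2 (-0.58 ± 0.13) and pyridoxal kinase Pdxk (-0.56 ± 0.13). Adjusted p was 0.216 for Mcoln2 and 0.313 for the rest of these genes. Reads of Anxa2, Adam8 and Pdxk cannot be told apart from those of Gm16144, Gm16201 and 4921516A02Rik, which overlap their exons.

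On both sides the TFEB difference was called in CCR2neg cells only, for most of these genes. Of the 12 with a positive interaction, 8 fell with TFEB in CCR2neg cells (background 0.518%) and none was called in CCR2pos cells (background 0.0628%). Of the 12 with a negative interaction, 11 rose with TFEB in CCR2neg cells (background 0.801%) and again none was called in CCR2pos cells. In all 24 the absolute difference between mac-TFEB and CX3CR1-Cre was smaller in CCR2pos. These genes were chosen on the interaction, which shares its libraries with the differences it is built from, so these counts are a description.

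Taken fraction by fraction, the TFEB difference was called for 8 genes (0.0628%) in CCR2pos cells and for 168 genes (1.32%) in CCR2neg cells, 102 higher (0.801%) and 66 lower (0.518%), and all 8 were among the 168 with the same sign. The median SD within a group was alike in the fractions (0.26 and 0.28 in mac-TFEB and CX3CR1-Cre CCR2pos, 0.27 in both CCR2neg groups). Of the 160 genes called in CCR2neg cells alone, 154 had the same sign in CCR2pos cells, and the difference between fractions was called for 1 of them, Mmp9. For the rest, a call in a single fraction does not show a difference between fractions. Among genes averaging at least 10 CPM in a group, the 4 largest of the 8 changes in CCR2pos cells were Gfi1b (5.76), a transcriptional repressor of erythroid and megakaryocyte cells, Tfeb (4.58), Gbgt1 (-1.27), a glycosyltransferase gene, and Mrps2 (-1.17), of the mitochondrial ribosome. Gfi1b, Gbgt1 and Mrps2 lie within chromosome 2 from 28468066 to 28621982, and their interactions were -1.32 ± 0.62, -0.24 ± 0.31 and -0.18 ± 0.23, none called. Gfi1b was at 23.6 to 32.0 CPM in mac-TFEB CCR2pos, 13.6 to 20.8 in mac-TFEB CCR2neg, 0.103 to 0.917 in CX3CR1-Cre CCR2pos and 0 to 0.367 CPM in CX3CR1-Cre CCR2neg libraries, so its fold changes rest on few reads in CX3CR1-Cre. Leaving out 1 numbered pair gave 5 to 7 calls in CCR2pos cells and 61 to 348 in CCR2neg cells, the lowest of the CCR2neg counts without mac-TFEB pair 3 and the highest without mac-TFEB pair 1.

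To compare sizes without choosing genes in 1 fraction, genes were called for the mean of both TFEB differences, which weights the fractions equally. This contrast was added after the data were seen. It called 251 genes (1.97%), of which 152 rose (1.19%) and 99 fell (0.778%). In 215 of the 251 (85.7%) the absolute TFEB difference was smaller in CCR2pos cells, against 7725 of all 12732 genes (60.7%). The median TFEB difference of the 152 was 0.48 in CCR2pos and 0.85 in CCR2neg cells, and that of the 99 was -0.38 in CCR2pos and -0.68 in CCR2neg cells. The interaction had an unadjusted p under 0.05 for 107 of the 251 (42.6%), against 7.85% of all genes, and in 106 of these 107 the difference was smaller in CCR2pos. The exception was Gdf3, a TGF-beta family ligand, at -1.06 in CCR2pos against -0.34 in CCR2neg cells, with an interaction of -0.77 ± 0.20 (adjusted p = 0.334), named after its values were seen. The 251 genes were chosen on the mean of the differences whose contrast is the interaction, in the same libraries. These counts are therefore a description.

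The share of such calls that were smaller in CCR2pos was 80.7 to 86.6% when single pairs were left out, against 56.5 to 63.3% of all genes. The number of calls was 57 without mac-TFEB pair 3, 80 and 145 without CX3CR1-Cre pair 4 or 1, and 122 without mac-TFEB pair 4, but 381 and 410 without mac-TFEB pair 1 or 2. For the 152 genes the median CCR2pos minus CCR2neg value was -0.26 in mac-TFEB and 0.03 in CX3CR1-Cre cells. For the 99 genes it was 0.28 in mac-TFEB and 0.02 in CX3CR1-Cre cells. In sorted bulk samples, fewer cells of a type that responds and less change per cell cannot be told apart.

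**Figure D2:**
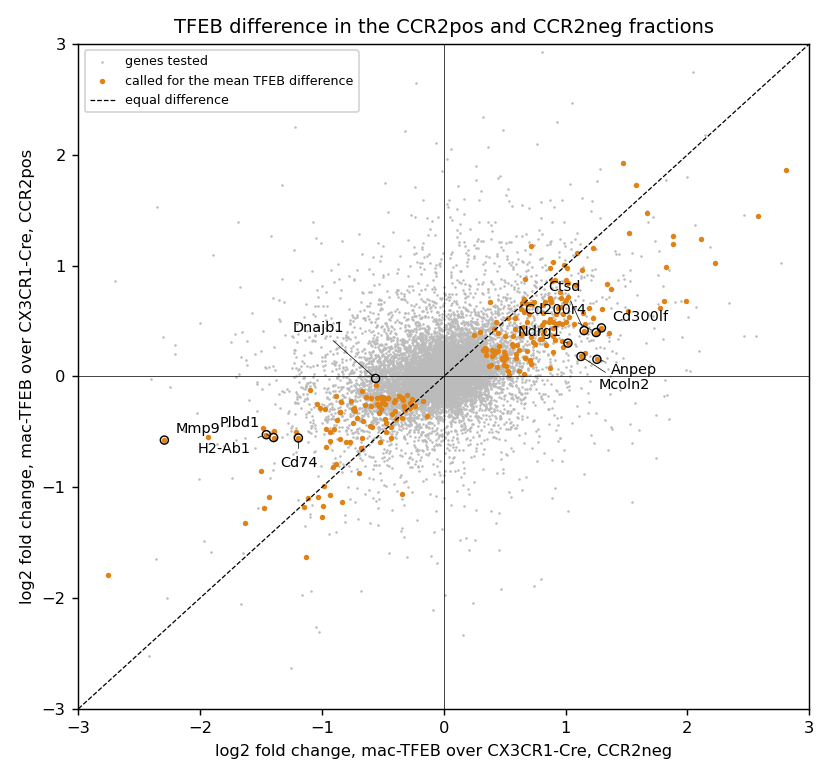
Each point is a gene, with its log2 fold change mac-TFEB over CX3CR1-Cre in CCR2pos cells (vertical axis) and in CCR2neg cells (horizontal axis); orange points are the 251 genes called for the mean of both, circles are genes named in the text, the dashed line marks equal differences, and 17 genes beyond 3 on either axis, 5 of them orange, are not drawn. Of the orange points, 215 have a smaller absolute value in CCR2pos, so most lie between the dashed line and the horizontal line at 0.

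The same data read as the effect of the sort give 482 genes (3.79%) called between CCR2pos and CCR2neg in mac-TFEB cells and 470 (3.69%) in CX3CR1-Cre cells. Of these, 233 were called in both with the same sign, which is 48.5% of the mac-TFEB calls and 49.8% of the CX3CR1-Cre calls. Mmp9 was the only gene called in both genotypes with opposite signs. Of the 718 genes called in either genotype, 275 had an unadjusted interaction p under 0.05, against 7.85% of all genes, but the 718 were chosen on the fraction differences from which the interaction is built, so this is a description. Leaving out mac-TFEB pair 1, 2, 3 or 4 gave 319, 231, 233 or 204 calls in mac-TFEB cells, and leaving out CX3CR1-Cre pair 5 gave 281 in CX3CR1-Cre cells. Il1b, the gene of the cytokine interleukin-1 beta, is an example of a shared difference: it rose in CCR2pos cells by 0.92 in mac-TFEB (adjusted p = 3.26e-05) and by 0.65 in CX3CR1-Cre (adjusted p = 0.000161), with an interaction of 0.27 ± 0.11 (adjusted p = 0.581).

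MHC class II genes, whose products present peptides to helper T cells, had interactions above 0 throughout. All 13 tested members of 14 listed had an interaction above 0, with a median of 0.45 against 0.03 for all genes, and 7 had an unadjusted p under 0.05 (background 4.59% in that direction), but none was called. The members were picked with earlier results of these data known. Their median TFEB difference was -0.28 in CCR2pos and -0.75 in CCR2neg cells, and 7 fell with TFEB in CCR2neg cells (background 0.518%). None was called in CCR2pos cells, where 0.0628% of all genes were. H2-Ab1, a beta chain (ENSMUSG00000073421, chromosome 17, 34257689 to 34269419), was at 3440, 4550, 2010 and 3220 CPM in mac-TFEB CCR2pos libraries, against 1990, 1250, 898 and 816 CPM in mac-TFEB CCR2neg libraries. H2-Ab1 was at 4730, 4700, 5050, 5540 and 3790 CPM in CX3CR1-Cre CCR2pos libraries, against 2830, 2990, 3860, 3920 and 3420 CPM in CX3CR1-Cre CCR2neg libraries. Every pair of both genotypes was higher in CCR2pos, and all 4 mac-TFEB CCR2neg libraries lay below every CX3CR1-Cre library.

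H2-Ab1 fell by 1.46 with TFEB in CCR2neg cells (adjusted p = 0.00291), against a value of -0.53 in CCR2pos cells (adjusted p = 0.951), and its interaction was 0.96 ± 0.21 (adjusted p = 0.313). H2-Eb1, the other beta chain, had an interaction of 0.94 ± 0.21, H2-Aa, an alpha chain, of 0.73 ± 0.16, and Cd74, the invariant chain that guides class II molecules to the peptide-loading compartment, of 0.68 ± 0.17. Cd74 was at 30500 to 49400 CPM in mac-TFEB CCR2pos and 13000 to 27100 CPM in mac-TFEB CCR2neg libraries, and at 49400 to 65400 in CX3CR1-Cre CCR2pos and 36300 to 48400 CPM in CX3CR1-Cre CCR2neg libraries. Outside the naming rule, the remaining 3 members under 0.05 were Ciita (0.72 ± 0.22), the master transactivator of class II genes, and the peptide-loading genes H2-DMb1 (0.53 ± 0.14) and H2-DMa (0.45 ± 0.12). Without Cre the list also leaned the same way, with 12 of 13 above 0, a median of 0.25 and 5 members under 0.05. When single pairs were left out, 12 or 13 members stayed above 0. B cell markers, whose cells also carry class II molecules, summed to 822 to 990 CPM in mac-TFEB CCR2pos, 497 to 855 in mac-TFEB CCR2neg, 815 to 1290 in CX3CR1-Cre CCR2pos and 700 to 1190 CPM in CX3CR1-Cre CCR2neg libraries, over the 12 of 14 that were tested, with Cd79a averaging 36.1, 23.8, 34.9 and 21.8 CPM in these groups, and their part in the result was not tested.

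**Figure D3:**
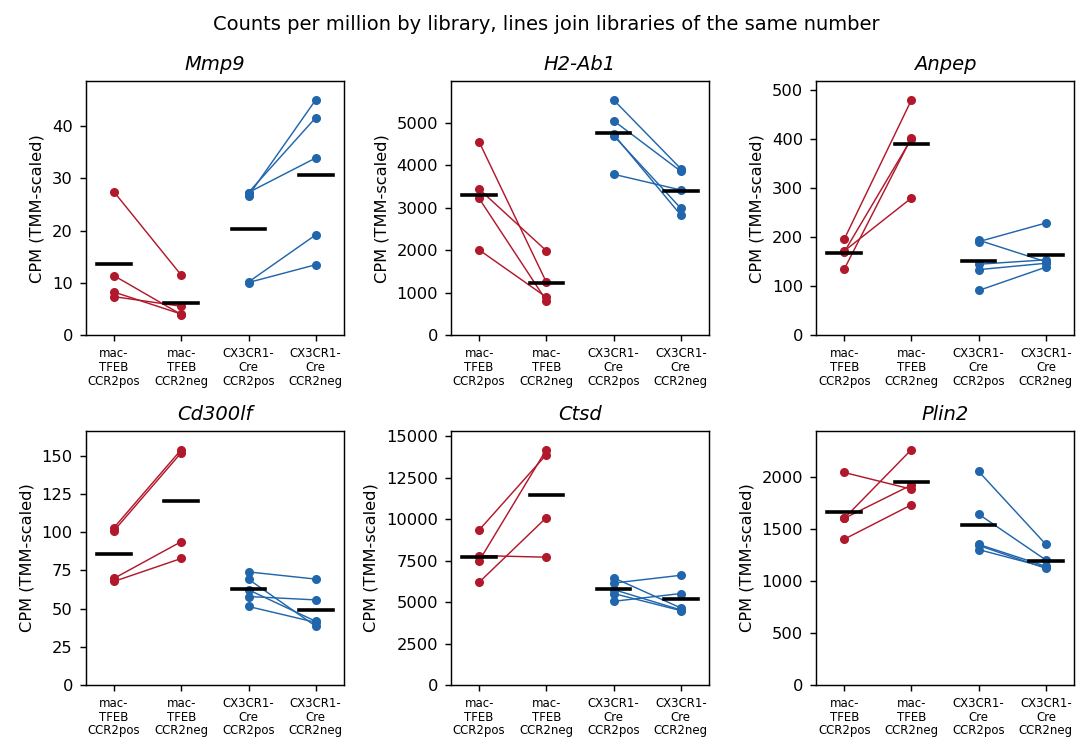
TMM-scaled CPM (vertical axis, from 0) of 6 genes in each library, in mac-TFEB CCR2pos and CCR2neg (red) and CX3CR1-Cre CCR2pos and CCR2neg (blue) from left to right; lines join libraries of the same number and black bars are group means. The mac-TFEB CCR2neg libraries are the lowest group for Mmp9 and H2-Ab1 and the highest for Anpep, Cd300lf, Ctsd and Plin2 by their means.

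Lysosomal genes, the textbook targets of TFEB, leaned the other way. Of 42 hydrolases and cathepsins tested, 32 had an interaction below 0, with a median of -0.15, and 10 of them had an unadjusted p under 0.05 (background 3.27%), against 2 above 0. Their median TFEB difference was -0.07 in CCR2pos and 0.09 in CCR2neg cells, and 3 members rose in CCR2neg cells (background 0.801%). Ctsd, the aspartic protease cathepsin D (chromosome 7, 142375911 to 142388038), was at 7810, 6200, 9350 and 7490 CPM in mac-TFEB CCR2pos libraries, against 7710, 10100, 13900 and 14200 CPM in mac-TFEB CCR2neg libraries, and at 5050 to 6470 CPM in CX3CR1-Cre CCR2pos and 4490 to 6620 CPM in CX3CR1-Cre CCR2neg libraries. In pairs 2 to 4 of mac-TFEB the CCR2neg library was well above its CCR2pos partner, while pair 1 was level. Ctsd rose by 1.15 with TFEB in CCR2neg cells (adjusted p = 0.000834), against a value of 0.41 in CCR2pos cells (adjusted p = 0.951), and its interaction was -0.72 ± 0.17 (adjusted p = 0.313). Reads of Gm49369, which shares exon bases with Ctsd, cannot be told apart from it. Lipa, the acid lipase that frees cholesterol from lipoproteins, had an interaction of -0.53 ± 0.14 (adjusted p = 0.338), and Ctsf, another cathepsin, had one of 0.46 ± 0.12 in the opposite direction.

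Of 35 genes of the lysosomal membrane and the v-ATPase proton pump, 26 had an interaction below 0, with a median of -0.12. Of these, 9 had an unadjusted p under 0.05 (background 3.27%), with none above 0 (background 4.59%). Mcoln2 encodes TRPML2, an endolysosomal cation channel (chromosome 3, 146149833 to 146195513). Mcoln2 was at 39.9, 45.6, 58.1 and 49.9 CPM in mac-TFEB CCR2pos libraries, against 41.7, 64.8, 71.0 and 75.1 CPM in mac-TFEB CCR2neg libraries, and at 36.5, 51.6, 61.4, 35.0 and 29.0 CPM in CX3CR1-Cre CCR2pos libraries, against 30.9, 38.4, 29.8, 23.8 and 22.1 CPM in CX3CR1-Cre CCR2neg libraries. All 4 mac-TFEB pairs were lower in CCR2pos and all 5 CX3CR1-Cre pairs higher. Atp6v1c1 (-0.37 ± 0.10) and Atp6v1a (-0.35 ± 0.10), subunits of the pump's cytosolic part, had the next smallest p. The channel Mcoln1 (0.43 ± 0.40), the membrane glycoprotein Lamp1 (0.00 ± 0.24) and the autophagy receptor Sqstm1 (0.11 ± 0.13) were not called, and the estimate of Lamp1 changed sign between settings. Reads of Lamp1 and Sqstm1 cannot be told apart from those of Grtp1 and Mrnip, which share exon bases with them. When single pairs were left out, 9 to 15 of the 42 hydrolases and 6 to 13 of the 35 membrane genes were above 0. Without Cre, 25 of the 42 and 22 of the 35 were below 0, with medians of -0.04 and -0.07. There 5 hydrolases and 0 membrane genes were above 0 at an unadjusted p under 0.05 (background 4.31%). Below 0 at that level were 0 hydrolases and 1 membrane gene (background 2.08%).

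TFEB binds CACGTG, and the promoters of Ctsd, Plin2 and Mcoln2 are shown as examples that hold it among genes that rose with TFEB in CCR2neg cells, from 250 bases before to 50 bases after the RefSeq start (GRCm38.p6), 5′ to 3′ on the gene's strand, with each CACGTG in capitals. CACGTG is its own reverse complement, so 1 search covers both strands.
Ctsd (chr7:142387778-142388077, minus strand): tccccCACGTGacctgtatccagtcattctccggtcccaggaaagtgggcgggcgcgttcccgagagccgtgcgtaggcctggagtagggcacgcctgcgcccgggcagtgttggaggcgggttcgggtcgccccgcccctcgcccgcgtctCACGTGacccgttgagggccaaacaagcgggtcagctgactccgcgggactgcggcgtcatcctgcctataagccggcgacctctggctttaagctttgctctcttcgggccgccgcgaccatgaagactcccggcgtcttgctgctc
Plin2 (chr4:86670010-86670309, minus strand): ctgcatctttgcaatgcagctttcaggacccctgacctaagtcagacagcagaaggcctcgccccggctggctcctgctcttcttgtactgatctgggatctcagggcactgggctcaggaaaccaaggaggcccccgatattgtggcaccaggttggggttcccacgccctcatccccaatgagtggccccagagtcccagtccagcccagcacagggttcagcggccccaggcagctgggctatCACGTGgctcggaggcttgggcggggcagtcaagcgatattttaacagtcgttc
Mcoln2 (chr3:146149924-146150223, plus strand): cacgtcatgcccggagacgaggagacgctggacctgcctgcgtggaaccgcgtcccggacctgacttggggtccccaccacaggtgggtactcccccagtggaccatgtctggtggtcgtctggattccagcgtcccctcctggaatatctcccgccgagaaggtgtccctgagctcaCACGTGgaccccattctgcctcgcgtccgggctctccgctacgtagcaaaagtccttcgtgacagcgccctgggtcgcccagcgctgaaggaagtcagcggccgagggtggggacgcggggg

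Ctsd held CACGTG at 2 places, Plin2 held it at its start and Mcoln2 upstream of its start. Lipa, Cd200r4, Anpep and Cd300lf, which also rose with TFEB in CCR2neg cells, did not hold these letters in the same window. Among the 12 genes of smallest p below 0, 10 had a promoter in the RefSeq table, and 3 of these held CACGTG, the third being Pdxk. Among the 12 above 0, 8 had a promoter, and 2 held it, Plbd1 and Dnajb9. Over all tested genes with a promoter the share was 11.8% (1150 of 9726), against 15.9% of the genes that rose in the mean TFEB contrast (18 of 113) and 13.2% of those that fell (10 of 76). A match describes the letters of a window and is not a measured binding site.

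Lipid handling genes were mixed. Of 38 tested, 12 had an unadjusted p under 0.05 with an interaction below 0 (background 3.27%) and 3 with one above 0 (background 4.59%). The median was -0.09. Plin2 was at 2040, 1400, 1600 and 1600 CPM in mac-TFEB CCR2pos libraries, against 1880, 1730, 1920 and 2260 CPM in mac-TFEB CCR2neg libraries, and at 1350, 1300, 2050, 1340 and 1640 CPM in CX3CR1-Cre CCR2pos libraries, against 1140, 1130, 1350, 1120 and 1200 CPM in CX3CR1-Cre CCR2neg libraries. Plin2 was higher in CCR2pos in 1 of 4 mac-TFEB pairs and in all 5 CX3CR1-Cre pairs. Soat1, which esterifies cholesterol for storage, had an interaction of -0.62 ± 0.14, and Apoe, the apolipoprotein of cholesterol efflux, one of 0.55 ± 0.13. Gpnmb, a transmembrane glycoprotein of lipid-laden macrophages, rose by 2.22 with TFEB in CCR2neg cells (adjusted p = 0.00427), against a value of 1.02 in CCR2pos cells (adjusted p = 0.951), and its interaction was -1.03 ± 0.34 (adjusted p = 0.532). Gpnmb was at 621 to 1370 CPM in mac-TFEB CCR2pos and 1270 to 5580 CPM in mac-TFEB CCR2neg libraries, and at 253 to 593 in CX3CR1-Cre CCR2pos and 592 to 1260 CPM in CX3CR1-Cre CCR2neg libraries.

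Among 31 tested genes of repair, growth factors and matrix, 5 on each side had an unadjusted p under 0.05, Mmp9 among them, and the median was 0.08. The background at that level was 4.59% of all genes above 0 and 3.27% below 0, also for the lists that follow. Mmp12, macrophage elastase, had an interaction of -1.24 ± 0.28, opposite to that of Mmp9. Mmp12 was at 101 to 159 CPM in mac-TFEB CCR2pos and 245 to 793 CPM in mac-TFEB CCR2neg libraries, against 93.2 to 133 in CX3CR1-Cre CCR2pos and 95.4 to 333 CPM in CX3CR1-Cre CCR2neg libraries, and its reads cannot be told apart from those of Mmp1b where their exons overlap. Hgf, hepatocyte growth factor, had an interaction of -0.81 ± 0.19. In the efferocytosis and complement list 5 of 32 were above 0 and 3 below 0 at an unadjusted p under 0.05, with a median of 0.10. Axl, a receptor that recognises dying cells through Gas6, had an interaction of 0.60 ± 0.15 and the complement subunit gene C1qc one of 0.50 ± 0.13, against -0.85 for Cd300lf. In the MiT/TFE and mTORC1 list 1 of 23 was above and 2 below 0 at that level, with a median of -0.04; its smallest p was that of Fnip2, the folliculin partner, at -0.48 ± 0.13.

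Stress and activation genes leaned towards a positive interaction. All 24 tested genes of the dissociation and stress response, which cell isolation can also induce, had an interaction above 0, against 6862 of all 12732 genes. Their median was 0.32, and 9 had an unadjusted p under 0.05. The background at that level was 4.59% above and 3.27% below 0. Their median TFEB difference was 0.02 in CCR2pos and -0.27 in CCR2neg cells, and none was called for TFEB. Junb was at 241, 259, 127 and 203 CPM in mac-TFEB CCR2pos libraries, against 206, 130, 80.1 and 85.7 CPM in mac-TFEB CCR2neg libraries, and at 172, 247, 388, 256 and 192 CPM in CX3CR1-Cre CCR2pos libraries, against 179, 212, 493, 226 and 201 CPM in CX3CR1-Cre CCR2neg libraries. Junb was highest in CX3CR1-Cre label 3, whose libraries stood apart in both fractions, and its reads cannot be told apart from those of Prdx2, which shares exon bases with it. The immediate early gene Ier2 had an interaction of 0.98 ± 0.23. Among inflammatory cytokines and NF-kB genes 26 of 31 were above 0 with a median of 0.19, 10 against 1 at an unadjusted p under 0.05, led by the NF-kB subunit gene Nfkb2 (1.04 ± 0.28, with exons that overlap Psd), its inhibitor Nfkbia (0.45 ± 0.15) and Relb (0.60 ± 0.21). Among macrophage lineage transcription factors 22 of 25 were above 0 with a median of 0.22, 8 against 2 at that level; the basic helix-loop-helix repressors Bhlhe41 (-0.59 ± 0.15) and Bhlhe40 (-0.44 ± 0.12) were the 2 below, and Bcl6, a zinc-finger repressor, was above (0.43 ± 0.12). When single pairs were left out, 21 to 24, 25 to 27 and 20 to 22 members of these lists were above 0. Without Cre, 18 of 24, 18 of 31 and 13 of 25 members of the same lists were above 0, with medians of 0.12, 0.06 and 0.03. There 5, 3 and 2 members were above 0 at an unadjusted p under 0.05 (background 4.31%), and 1, 0 and 0 below (background 2.08%).

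No member of the remaining pathway lists was called for the interaction by edgeR. The background at an unadjusted p under 0.05 was 4.59% of all genes above 0 and 3.27% below 0. At an unadjusted p under 0.05, glycolysis had 1 of 23 genes above 0 and 6 below, with a median of -0.13 and the smallest p for the enzyme genes Aldoa (-0.38 ± 0.10) and Pkm (-0.44 ± 0.12). Proliferation genes had 0 above and 2 below of 40, with 33 of 40 estimates below 0 and a median of -0.20. Their TFEB difference had a median of 0.47 in CCR2pos and 0.68 in CCR2neg cells. For the mean TFEB difference 12 of the 40 were called (background 1.97%). None was called in CCR2pos (background 0.0628%) or in CCR2neg cells alone (background 1.32%). Autophagy genes had 1 above and 2 below of 36, with a median of 0.06, led by Atg7 (-0.44 ± 0.12), the E1-like enzyme of autophagosome formation. Interferon response genes had 4 above and 0 below of 37 with a median of 0.09, oxidative phosphorylation genes 1 above and 0 below of 36 with -0.09, and antioxidant and NRF2 targets 0 above and 1 below of 21 with -0.06. The antioxidant gene below 0 was the peroxiredoxin Prdx1 (-0.52 ± 0.13).

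**Figure D4:**
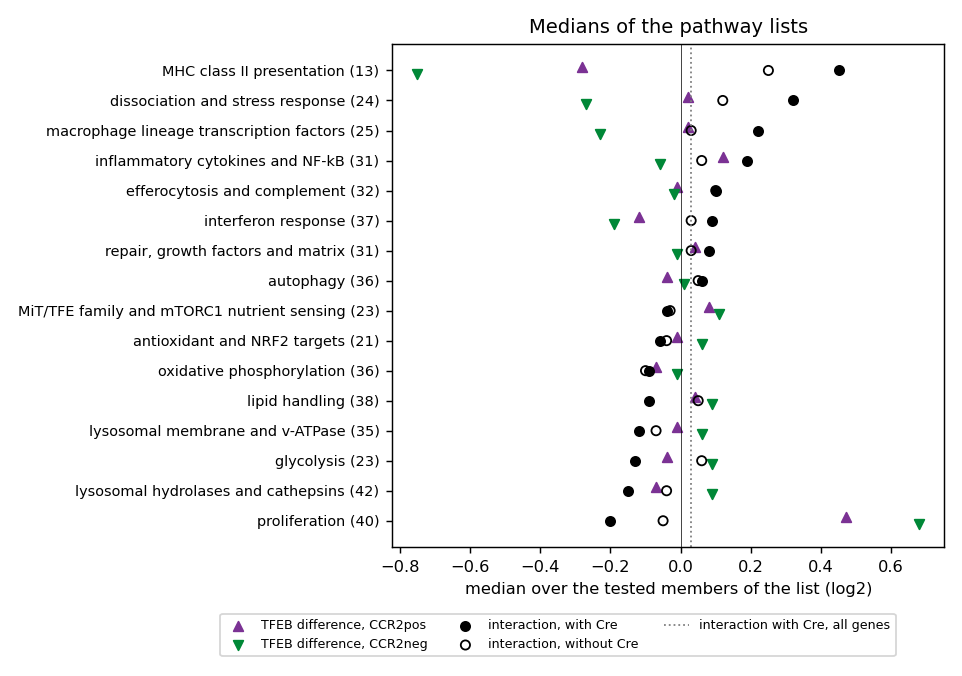
Medians over the tested members of each pathway list (number in brackets) on the log2 scale: TFEB difference in CCR2pos (purple) and CCR2neg cells (green), interaction with Cre (filled circles) and without Cre (open circles), with the interaction median of all genes dotted. MHC class II has the highest interaction median, 0.45, and proliferation the lowest, -0.20.

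Transcripts of other cells were low, and the sums of several lists ranged widely within a group. Fibroblast and mural markers summed to 99.3 to 196 CPM in mac-TFEB CCR2pos, 61.7 to 513 in mac-TFEB CCR2neg, 79.8 to 152 in CX3CR1-Cre CCR2pos and 81.8 to 469 CPM in CX3CR1-Cre CCR2neg libraries. All 18 tested had an interaction above 0, 4 of them at an unadjusted p under 0.05 (background 4.59%), with a median of 0.99. Endothelial markers summed to 53.5 to 156 CPM in mac-TFEB CCR2pos, 78.5 to 592 in mac-TFEB CCR2neg, 40.3 to 112 in CX3CR1-Cre CCR2pos and 52.4 to 344 CPM in CX3CR1-Cre CCR2neg libraries, with 12 of 15 above 0 and a median of 0.87. The 4 tested mast cell and basophil markers summed to at most 8.25 CPM in every library but those of CX3CR1-Cre CCR2neg cells, which reached 61.2 CPM, with Tpsb2 at 50.7 CPM. T and NK cell markers, of which 16 of 19 were below 0 with a median of -0.49, summed to 109 to 445 CPM in mac-TFEB CCR2pos, 172 to 343 in mac-TFEB CCR2neg, 84.3 to 282 in CX3CR1-Cre CCR2pos and 71.5 to 139 CPM in CX3CR1-Cre CCR2neg libraries, and their defining gene Cd3e averaged 7.97, 5.03, 8.04 and 1.92 CPM in these groups. The part of these cells in the results above was not tested. Medians of the other marker lists were 0.22 for cardiomyocytes, 0.27 for B cells, 0.12 for resident cardiac macrophages, 0.08 for dendritic cells, 0.03 for erythroid cells and platelets, 0.01 for monocytes and -0.17 for the 7 neutrophil markers tested. No member of these lists was called for the interaction by edgeR apart from Mmp9, which is also on the neutrophil list. The 7 neutrophil markers summed to 150 to 171 CPM in mac-TFEB CCR2pos and 100 to 138 CPM in mac-TFEB CCR2neg libraries. In CX3CR1-Cre cells they summed to 146 to 189 CPM in CCR2pos and 109 to 148 CPM in CCR2neg libraries. One of them, S100a8, was near the floor and ran the other way. It averaged 0.884 CPM in mac-TFEB CCR2pos, 1.21 in mac-TFEB CCR2neg, 0.670 in CX3CR1-Cre CCR2pos and 0.855 CPM in CX3CR1-Cre CCR2neg cells. The part of neutrophils in these values was not tested.

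Cells without Cre give the background of the comparison: TFEB-TG Cre-neg cells carry the cassette behind its stop, and TFEB-wt Cre-neg cells carry none. In the 18 Cre-neg libraries the same difference of differences called 0 of 12767 genes in edgeR (0%), with 816 at an unadjusted p under 0.05 (6.39%), 11 called by DESeq2 and 0 by limma-voom. The smallest p there were those of Gfi1b (2.28 ± 0.37, adjusted p = 0.319) and Axl (0.78 ± 0.14, adjusted p = 0.533). The interaction with Cre minus that without Cre was called for 0 of 12795 genes in edgeR (0%), with 483 at an unadjusted p under 0.05 (3.77%), 1 called by DESeq2 and 0 by limma-voom. For Mmp9 the interaction without Cre was 1.11 ± 0.29 (unadjusted p = 0.00195), and the difference with minus without Cre was 0.51 ± 0.50 (unadjusted p = 0.313).

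The genes of smallest p were also read in the Cre-neg fit. Of the 11 genes above 0 that were tested without Cre (Tpsb2 was not), all 11 were above 0 there too, and 7 had an unadjusted p under 0.05 in that direction (background 4.31%). Of the 12 genes below 0, 11 were below 0 without Cre, and none had an unadjusted p under 0.05 (background 2.08%). H2-Ab1, for example, had an interaction of 0.96 with and 0.83 ± 0.23 without Cre, while Mcoln2 had -0.90 with and -0.03 ± 0.20 without. The difference itself had an unadjusted p under 0.05 in the same direction for 0 of the 12 above (background 1.75%) and 7 of the 12 below 0 (background 2.02%), but the genes were chosen on 1 of its parts. Among the 251 genes of the mean TFEB contrast, the Cre-neg interaction had a median of -0.12 for those that rose and 0.14 for those that fell, against -0.34 and 0.27 with Cre.

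**Figure D5:**
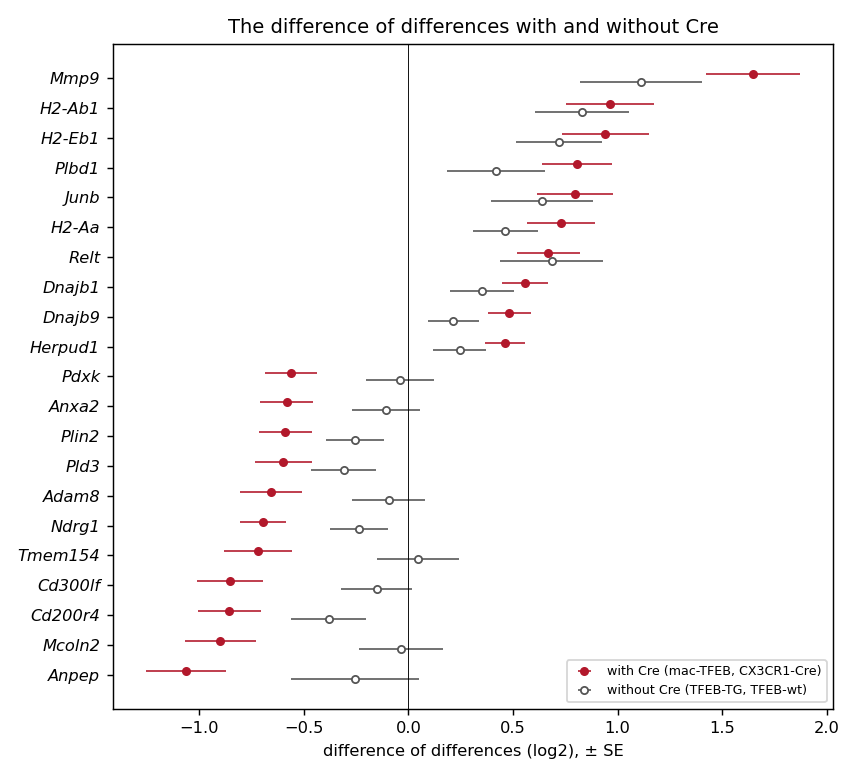
Interaction on the log2 scale with its standard error for named genes among those of smallest p above and below 0, in Cre-expressing (red, filled) and Cre-neg libraries (grey, open); Tpsb2, not tested without Cre, is left out. The genes drawn above 0 with Cre, such as H2-Ab1 at 0.96, are also above 0 without it, while Mcoln2, at -0.90 with Cre, lies at -0.03 without it.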

How the data were processed

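Poly(A) RNA of flow-sorted mouse cardiac macrophages was made into cDNA with the SMARTer Ultra Low kit and read without strand information, per the labels' protocols. The deposited table holds raw counts per gene, and its name says that genes were filtered, by a rule not given in the sources used here. Per the submitters' processing notes, the tools included HTSeq, edgeR, DESeq, Bowtie2 and TopHat2 2.0.10 (TopHat is also listed), with genome build GRCm38. Gene positions come from GENCODE annotation of GRCm38 and promoters from RefSeq.

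From the deposited counts, TMM factors, filterByExpr and edgeR 4.0.16 quasi-likelihood F-tests (R 4.3.3) were computed on the 18 Cre-expressing libraries. The model held 9 numbered labels as a block and the fraction difference of each genotype, which left 7 residual degrees of freedom. Of 12795 genes, 63 were removed. The TFEB difference in each fraction, and its mean over both, came from a fit of 4 group means without the block. The 18 Cre-neg libraries were fitted like the Cre-expressing ones (28 genes removed), and the difference with and without Cre came from 1 blocked fit to all 36 libraries. That block joined Cre-expressing and Cre-neg libraries of the same number within a genotype, a link that rests on the label numbers. Benjamini-Hochberg adjustment ran over all genes of a fit. Standard errors were derived from the fold change and F. Pair differences are of log2 CPM with a prior count of 2.

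Samples of the same number deviated together in every Cre-expressing pair, with correlations of 0.382 to 0.496 in mac-TFEB and 0.175 to 0.266 in CX3CR1-Cre, and the pairing comes from the numbers in the labels. Alternatives used DESeq2 1.42.0, limma 3.58.1 with voom quality weights, other size factors and filters, no block, a fraction-by-sex term and each numbered pair left out. The test was tried on simulated data.

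The genes that the text names are a fixed set of 11, the 12 of smallest p on each side averaging at least 10 CPM in a group, up to 3 members of each list by smallest p, and genes called for TFEB. The comparison, the gene lists and the naming rule were chosen with earlier results of these data known. Some genes that this rule names are not reported here, though counts over genes include them.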

Additional observations from a re-analysis of the deposited data

Results flagged for a closer look

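The difference mac-TFEB minus CX3CR1-Cre of Mmp9 differed between the CCR2pos and CCR2neg fractions, with an interaction of 1.65 ± 0.22 (edgeR, adjusted p = 0.0493). All 4 mac-TFEB pairs were higher in CCR2pos and all 5 CX3CR1-Cre pairs lower, which held for 24 of all 12732 genes (0.189%). Mmp9 is named here because it was called, so the direction of its pairs is a description. Without Cre the interaction of Mmp9 was 1.11 ± 0.29, and the difference with minus without Cre was 0.51 ± 0.50 (edgeR, unadjusted p = 0.313). Among 38 groups of pair differences examined, Cx3cr1 in CX3CR1-Cre pair 4 stood apart, at -0.26 against 0.07, 0.05, 0.08 and 0.04 in the other pairs of that genotype. Chance sets apart about 1 in 20 such groups.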

How the results depend on the processing

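The count of 1 gene called for the interaction was 0 with DESeq2 size factors, in 1 fit to 36 libraries, without the replicate block and with a fraction-by-sex term, 98 with DESeq2, 58 with DESeq2 without independent filtering and 10 with limma-voom. Leaving out 1 numbered pair gave 20 without mac-TFEB pair 1, and 0 or 1 without any other pair. The 8 calls for TFEB in CCR2pos were 4 under a stricter filter and 29 with DESeq2, and 5 to 7 with a pair left out. The 168 in CCR2neg were 458 with DESeq2 and 1123 with limma-voom, and 61 to 348 with a pair left out. Calls between fractions were 931 with limma-voom and 102 without the replicate block in mac-TFEB, with 204 to 684 when a pair was left out, and 771 with DESeq2 and 134 without the block in CX3CR1-Cre, with 281 to 474. DESeq2 gave 11 Cre-neg calls and 1 call for the difference with and without Cre, and leaving out pairs gave 0 for both. The mean TFEB contrast called 57 to 410 genes, of which 27.6 to 56.1% had an unadjusted interaction p under 0.05. The interaction of Lamp1 was below 0 with size factors (-0.0203), a stricter filter (-0.0058), DESeq2 (-0.0195), limma-voom (-0.149), no block (-0.0446) and the sex term (-0.116), and -0.182 to 0.199 with a pair left out. That of Tfeb was -0.027 with limma-voom and -0.0758 to 0.266 with a pair left out. The cause of these shifts was not tested. With 4 and 5 pairs, interactions near a log2 value of 1 are often not called.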
